A study of Mus musculus with 12 samples.

Results

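The insulin-like growth factor (IGF) system was followed here through 10 genes in endothelial cells of the embryonic mouse forebrain. The members were taken by symbol, as GENCODE vM21 assigns it to the gene identifiers of the data: the ligands *Igf1* and *Igf2*, the receptors *Igf1r*, *Igf2r* and *Insr*, and the binding proteins *Igfbp2*, *Igfbp3*, *Igfbp4*, *Igfbp5* and *Igfbp7*. They are 10 of 49315 genes in the data, and all 10 were among the 16637 genes with enough reads to test. RNA-seq was done on CD31+ brain endothelial cells of E15.5 embryos, and the sort also required cells to be negative for CD140b (a pericyte marker), CD45 (a leukocyte marker) and the dead-cell dye 7AAD. Of 12 libraries, 4 were wild type (JE1, JE6, KE8 and LE6), 4 were *Gpr124*ΔC/ΔC (JE3, JE4, LE2 and LE5) and 4 were *Gpr124*-/- (KE4, ME1, ME4 and ME5), each named by its embryo. In the ΔC allele, made by CRISPR/Cas9 in zygotes, a V5 tag and a stop codon precede the intracellular domain of GPR124, and the null is the lacZ allele; both are germline alleles, so every cell of the embryo carries them and not endothelium alone. The paper reports much less GPR124ΔC than wild-type GPR124 protein, in total and at the cell surface, with similar mRNA. The comparisons ask how endothelial transcripts differ with the ΔC allele or without the receptor. For the ΔC allele, loss of the domain and the lower amount of receptor cannot be told apart here.

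IGF1 and IGF2 are secreted growth factors that signal through the IGF1 receptor, a receptor tyrosine kinase closely related to the insulin receptor, and onward through insulin receptor substrates, PI3K and AKT. IGF2R, the cation-independent mannose 6-phosphate receptor, takes up IGF2 for lysosomal degradation, and the IGFBPs bind the ligands in the extracellular space and set how much reaches the receptors. *Igf2* and *Igf2r* are imprinted in the mouse, with *Igf2* expressed mainly from the paternal and *Igf2r* from the maternal allele. GPR124, encoded by *Adgra2*, acts with RECK as an endothelial co-activator of WNT7 signaling in brain vessels.

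Levels are given as TPM, a measure of transcript abundance that corrects for gene length and library total, and differences as log2 fold changes with standard error (SE) from edgeR's quasi-likelihood test on counts. A gene passed at a Benjamini-Hochberg adjusted p under 0.05 over all tested genes, and was called when its log2 fold change also exceeded 1 in size. *Gpr124* transcripts stood at 28.3 to 51.1 TPM in wild type, 34.0 to 63.4 TPM in *Gpr124*ΔC/ΔC and 4.03 to 6.29 TPM in *Gpr124*-/-, so every null library lay below all others. *Pecam1* (CD31) stood at 414 to 857 TPM, whereas *Pdgfrb* (CD140b) did not exceed 3.96 TPM and *Ptprc* (CD45) did not exceed 0.08 TPM in any library. These genes encode the markers used in the sort, so their levels do not show purity apart from it. Markers of other cell types are given below.

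The 300-base RefSeq windows around the transcription starts (250 bases before to 50 after, GRCm38.p6) are shown for the 5 members that passed in both mutants. They are given because GPR124 acts in WNT signaling, whose TCF/LEF factors bind sites containing CTTTGA; capitals mark that motif on either strand (TCAAAG on the other), and each sequence runs 5' to 3' along the gene. Of 4 starts listed for *Igf2*, the farthest upstream is printed, and the windows of the others hold no copy of the motif.
Igf1 (chr10:87860861-87861160, plus strand): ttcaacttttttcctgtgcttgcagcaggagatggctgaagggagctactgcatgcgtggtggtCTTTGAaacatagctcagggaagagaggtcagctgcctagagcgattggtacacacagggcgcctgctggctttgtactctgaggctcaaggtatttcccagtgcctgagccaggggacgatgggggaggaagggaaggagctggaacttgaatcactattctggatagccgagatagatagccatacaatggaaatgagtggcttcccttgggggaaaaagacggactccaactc
Igf2 (chr7:142666767-142667066, minus strand): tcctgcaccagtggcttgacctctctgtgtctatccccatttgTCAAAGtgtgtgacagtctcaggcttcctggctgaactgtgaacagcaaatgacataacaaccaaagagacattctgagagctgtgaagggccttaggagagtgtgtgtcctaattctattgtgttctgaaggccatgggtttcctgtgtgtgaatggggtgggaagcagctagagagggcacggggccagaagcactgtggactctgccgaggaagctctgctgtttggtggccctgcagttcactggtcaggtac
Igf1r (chr7:67952007-67952306, plus strand): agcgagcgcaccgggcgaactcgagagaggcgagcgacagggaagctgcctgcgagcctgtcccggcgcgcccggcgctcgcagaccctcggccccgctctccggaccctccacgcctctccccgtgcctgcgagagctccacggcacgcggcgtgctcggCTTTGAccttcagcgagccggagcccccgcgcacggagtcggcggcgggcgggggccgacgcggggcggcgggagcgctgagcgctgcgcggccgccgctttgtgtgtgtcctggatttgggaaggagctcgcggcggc
Igf2r (chr17:12769657-12769956, minus strand): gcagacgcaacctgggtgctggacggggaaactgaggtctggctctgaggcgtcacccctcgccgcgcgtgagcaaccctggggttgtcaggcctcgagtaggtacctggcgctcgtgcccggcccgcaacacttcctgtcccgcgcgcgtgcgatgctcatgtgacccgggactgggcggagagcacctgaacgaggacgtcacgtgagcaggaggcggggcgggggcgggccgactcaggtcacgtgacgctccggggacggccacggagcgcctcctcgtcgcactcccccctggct
Igfbp5 (chr1:72874816-72875115, minus strand): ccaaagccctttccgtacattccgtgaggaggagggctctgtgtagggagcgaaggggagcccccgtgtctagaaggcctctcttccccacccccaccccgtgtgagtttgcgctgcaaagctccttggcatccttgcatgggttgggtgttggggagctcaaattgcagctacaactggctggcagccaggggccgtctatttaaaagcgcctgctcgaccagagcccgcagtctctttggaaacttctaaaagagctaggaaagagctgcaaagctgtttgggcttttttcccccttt

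The match began 186 bases before the start of *Igf1*, 207 bases before this start of *Igf2*, on the opposite strand, and 89 bases before the start of *Igf1r*. No match lay in the windows of *Igf2r* and *Igfbp5*. Over the 9 members with an entry, 3 of 13 windows held it, against 16.0% of all 32851 promoter windows of the same length. The *Igf1r* window was also the richest in G and C of the 13, at 76.0%, against 52.3% for that of *Igf1*. The letters are a description of these windows and were not tested as binding sites.

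Both ligands rose in both mutants, and *Igf2* was the more abundant in every library. *Igf1* (10:87858265-87937042, plus strand, mm10) was read at 4.28, 4.35, 4.47 and 3.10 TPM in wild-type JE1, JE6, KE8 and LE6. It was read at 9.42, 9.41, 11.8 and 8.06 TPM in *Gpr124*ΔC/ΔC JE3, JE4, LE2 and LE5. In *Gpr124*-/- KE4, ME1, ME4 and ME5 it was read at 11.6, 10.5, 7.92 and 5.92 TPM. Every mutant library lay above every wild-type library, and the 2 mutants overlapped. Relative to wild type, its log2 fold change was 1.17 ± 0.21 (SE) in *Gpr124*ΔC/ΔC (edgeR, adjusted p = 0.00631) and 1.10 ± 0.21 in *Gpr124*-/- (adjusted p = 0.00246), a rise of 2.26-fold and 2.14-fold. Between the 2 mutants the difference was -0.07 ± 0.21 (adjusted p = 0.865). In the model with the label letter, described with *Igf2*, the *Gpr124*-/- value was 1.33 and did not pass (adjusted p = 0.053).

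*Igf2* (7:142650766-142666816, minus strand) was steady in wild type, at 219, 183, 218 and 213 TPM in JE1, JE6, KE8 and LE6. In *Gpr124*ΔC/ΔC it stood at 458, 532, 549 and 444 TPM in JE3, JE4, LE2 and LE5. In *Gpr124*-/- it stood at 662, 892, 714 and 1025 TPM in KE4, ME1, ME4 and ME5. The 3 genotypes formed 3 separate ranges, with wild type lowest and *Gpr124*-/- highest. Against wild type, the log2 fold change was 1.17 ± 0.15 in *Gpr124*ΔC/ΔC (edgeR, adjusted p = 0.000529) and 1.95 ± 0.15 in *Gpr124*-/- (adjusted p = 1.83e-06). *Gpr124*-/- exceeded *Gpr124*ΔC/ΔC by 0.78 ± 0.14 on the log2 scale (adjusted p = 0.00559), but by 0.36 in a model with a term for the letter that begins each embryo's label, which did not pass (adjusted p = 0.859). In that model 3 of 4 *Gpr124*-/- libraries have a letter that no other genotype has, so its *Gpr124*-/- values rest on KE4 against wild-type KE8, with the spread taken from the other libraries. The *Igf2* to *Igf1* ratio of TPM was 42.0 to 68.8 in wild type, 46.4 to 56.5 in *Gpr124*ΔC/ΔC and 57.1 to 173 in *Gpr124*-/-.

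**Figure D1:**
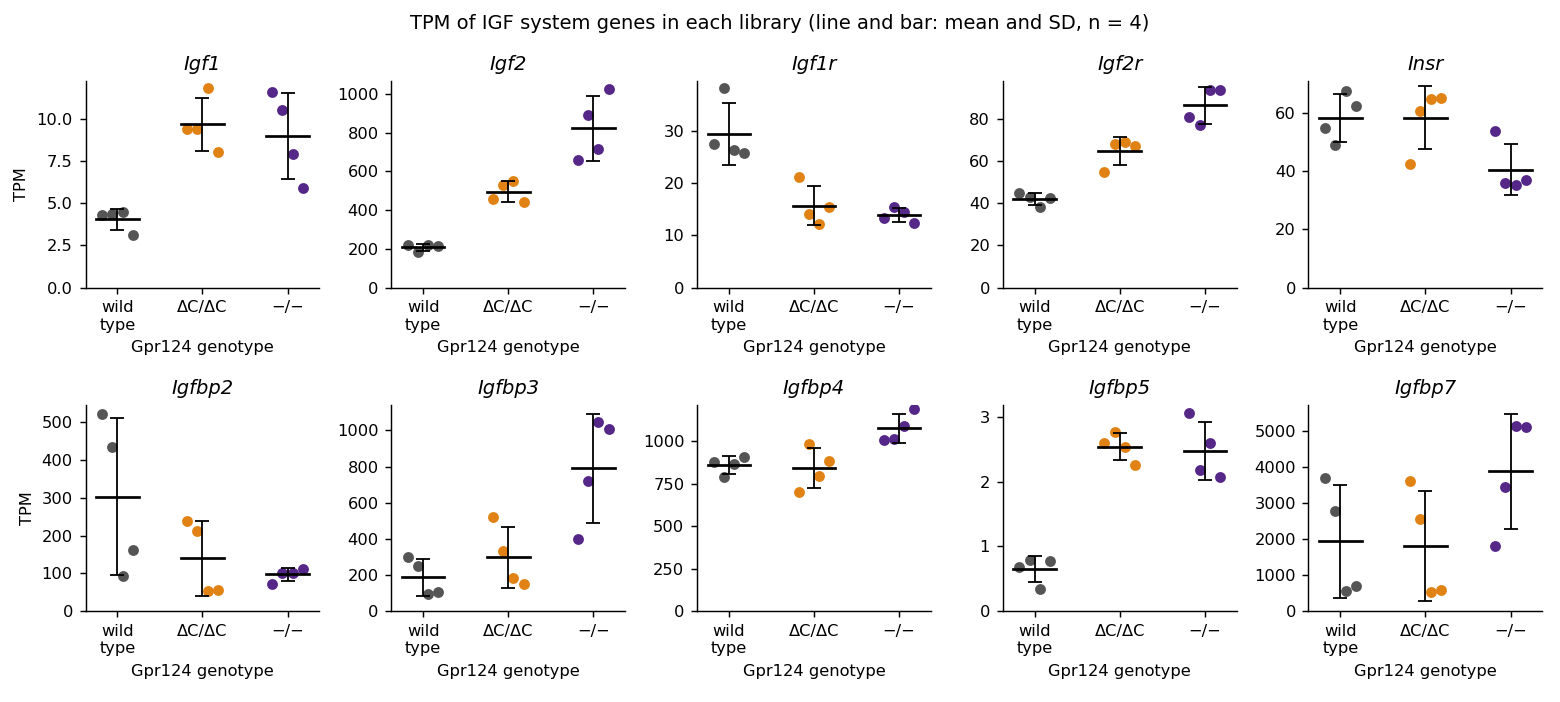
TPM of the 10 members (one panel each, own vertical axis from 0) by genotype; points are the 4 libraries of a genotype in the order listed in the text, lines and bars the mean and SD. *Igf1*, *Igf2*, *Igf2r* and *Igfbp5* lie higher in all mutant than in all wild-type libraries and *Igf1r* lower, while *Igfbp2*, *Igfbp3* and *Igfbp7* spread widely within wild type and *Gpr124*ΔC/ΔC.

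The receptors went different ways. *Igf1r* (7:67952827-68233668, plus strand), the signaling receptor for both ligands, was lower in both mutants. It was read at 27.4, 38.2, 26.3 and 25.8 TPM in wild-type JE1, JE6, KE8 and LE6, and at 21.1, 14.2, 12.2 and 15.4 TPM in *Gpr124*ΔC/ΔC JE3, JE4, LE2 and LE5. *Gpr124*-/- KE4, ME1, ME4 and ME5 gave 13.3, 15.3, 14.4 and 12.3 TPM. No mutant library reached the lowest wild-type value. Against wild type, *Igf1r* had a log2 fold change of -1.15 ± 0.23 in *Gpr124*-/- (edgeR, adjusted p = 0.0029) and of -0.97 ± 0.23 in *Gpr124*ΔC/ΔC (adjusted p = 0.0277). With the label letter in the model the *Gpr124*-/- value was -1.03 and did not pass (adjusted p = 0.113). The *Gpr124*ΔC/ΔC difference stayed between -1.24 and -0.76 in all 23 alternative analyses, but its adjusted p reached 0.106, and it passed in 17 of them; JE1, JE6, JE4, LE2 and LE5 each took it past 0.05 when left out. The mutants differed by -0.18 ± 0.22 (adjusted p = 0.679).

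*Igf2r* (17:12682406-12769664, minus strand), the receptor that clears IGF2, rose in both mutants. Wild-type JE1, JE6, KE8 and LE6 gave 45.2, 42.9, 38.2 and 42.5 TPM, *Gpr124*ΔC/ΔC JE3, JE4, LE2 and LE5 gave 54.8, 68.3, 68.9 and 67.1 TPM, and *Gpr124*-/- KE4, ME1, ME4 and ME5 gave 81.0, 77.2, 93.9 and 94.1 TPM. As for *Igf2*, the 3 ranges did not overlap. The log2 fold change was 0.53 ± 0.10 for *Gpr124*ΔC/ΔC against wild type (edgeR, adjusted p = 0.00604), 0.99 ± 0.10 for *Gpr124*-/- against wild type (adjusted p = 1.11e-05) and 0.46 ± 0.10 for *Gpr124*-/- against *Gpr124*ΔC/ΔC (adjusted p = 0.0103). The last difference no longer passed in 4 of 23 alternatives, with the label letter in the model (0.55, adjusted p = 0.274) and in 3 limma fits on log2 TPM (0.41 to 0.42, adjusted p from 0.0503 to 0.0613). *Airn*, the non-coding transcript that runs antisense through *Igf2r* and silences it on the paternal allele, moved in the same direction, from 9.47 to 14.3 TPM in wild type to 18.5 to 21.5 TPM in *Gpr124*ΔC/ΔC and 24.1 to 33.2 TPM in *Gpr124*-/-. Its log2 fold changes against wild type were 0.56 (adjusted p = 0.0237) and 1.02 (adjusted p = 9.2e-05). No annotated exon base is shared by the 2 genes, but whether counting used strand is not stated.

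*Insr* (8:3122061-3279617, minus strand), the insulin receptor, which also binds IGF2 in one isoform, passed in *Gpr124*-/- and not in *Gpr124*ΔC/ΔC. Wild-type JE1, JE6, KE8 and LE6 gave 54.8, 48.9, 67.6 and 62.3 TPM, *Gpr124*ΔC/ΔC JE3, JE4, LE2 and LE5 gave 42.6, 60.8, 65.0 and 65.2 TPM, and *Gpr124*-/- KE4, ME1, ME4 and ME5 gave 53.7, 36.0, 35.3 and 37.0 TPM. KE4 lay within the wild-type range and the other 3 *Gpr124*-/- libraries below it. In *Gpr124*-/- the log2 fold change of *Insr* was -0.57 ± 0.13 against wild type (edgeR, adjusted p = 0.00704) and -0.48 ± 0.13 against *Gpr124*ΔC/ΔC (adjusted p = 0.0352), and between *Gpr124*ΔC/ΔC and wild type it was -0.09 ± 0.13 (adjusted p = 0.888). The difference between the mutants no longer passed in 11 of 23 alternatives, among them without JE4, LE2, LE5, ME1, ME4 or ME5, with a highest adjusted p of 0.103 when 1 library was left out. Comparing KE4 with wild-type KE8, whose labels begin with the same letter, the difference was -0.38, and with the label letter in the model the adjusted p was 0.291; the difference from wild type did not pass in 3 limma fits on log2 TPM either (adjusted p from 0.0633 to 0.1003).

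Expressed as ratios of TPM, *Igf2r* exceeded *Igf1r* 1.12 to 1.65 times in wild-type libraries, 2.60 to 5.66 times in *Gpr124*ΔC/ΔC and 5.03 to 7.65 times in *Gpr124*-/-. *Insr* was the most abundant receptor in wild type, and *Igf2r* was in *Gpr124*-/-, without overlap of the ranges in either genotype. In *Gpr124*ΔC/ΔC the ranges of *Igf2r* and *Insr* overlapped. These ratios were formed after the levels were seen and carry no test.

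**Figure D2:**
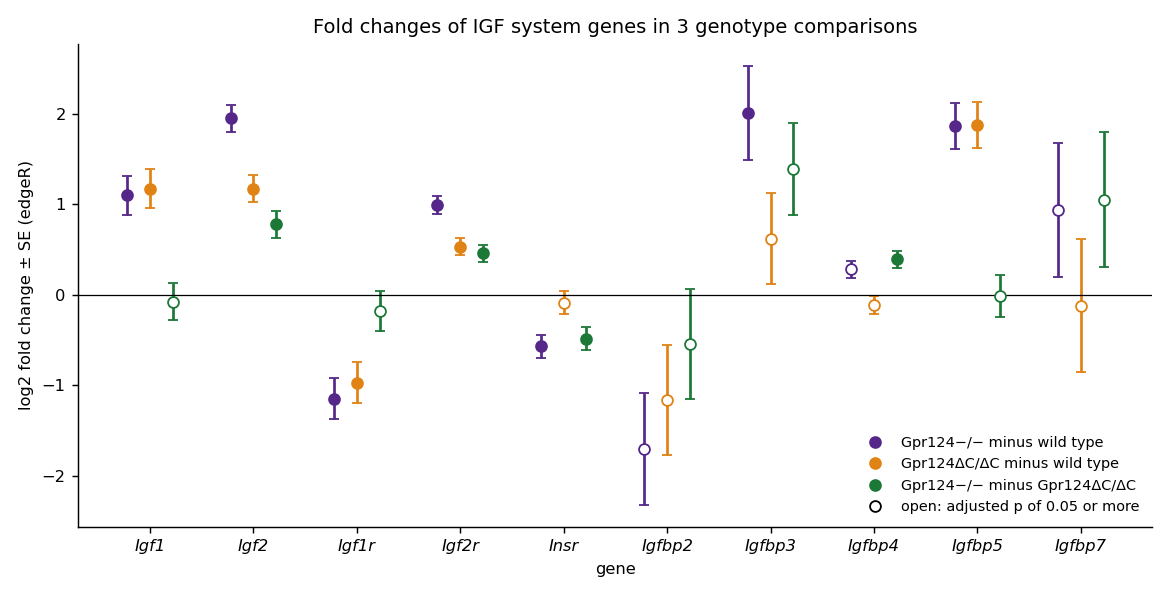
Log2 fold change ± SE (edgeR) of the 10 members in *Gpr124*-/- minus wild type, *Gpr124*ΔC/ΔC minus wild type and *Gpr124*-/- minus *Gpr124*ΔC/ΔC; filled points passed at an adjusted p under 0.05 and open points did not. *Igf1* and *Igfbp5* have nearly the same fold change in both mutants, *Igf2* and *Igf2r* step up from one mutant to the other, and *Igfbp2*, *Igfbp3* and *Igfbp7* have the widest errors.

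Among the binding proteins, *Igfbp5* rose in both mutants from a very low level, and *Igfbp3* rose in *Gpr124*-/-. *Igfbp5* (1:72857932-72874884, minus strand) was read at 0.68, 0.79, 0.35 and 0.78 TPM in wild-type JE1, JE6, KE8 and LE6, from 14 to 32 reads per library. It stood at 2.60, 2.77, 2.53 and 2.26 TPM in *Gpr124*ΔC/ΔC JE3, JE4, LE2 and LE5, and at 3.05, 2.18, 2.60 and 2.07 TPM in *Gpr124*-/- KE4, ME1, ME4 and ME5, from 68 to 113 reads per mutant library. All mutant libraries lay above all wild-type libraries, and the mutants overlapped. The log2 fold change was 1.88 ± 0.25 in *Gpr124*ΔC/ΔC (edgeR, adjusted p = 0.001) and 1.86 ± 0.25 in *Gpr124*-/- (adjusted p = 0.000186), with -0.01 ± 0.24 between the mutants (adjusted p = 0.982). *Igfbp5* remained the least abundant member in every genotype.

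*Igfbp3* (11:7206086-7213923, minus strand), the main carrier of circulating IGFs, gave 298, 252, 97.7 and 105 TPM in wild-type JE1, JE6, KE8 and LE6. *Gpr124*ΔC/ΔC JE3, JE4, LE2 and LE5 gave 522, 332, 182 and 153 TPM, and *Gpr124*-/- KE4, ME1, ME4 and ME5 gave 397, 718, 1044 and 1006 TPM. *Gpr124*-/- lay above wild type without overlap, and *Gpr124*ΔC/ΔC overlapped both. The log2 fold change was 2.01 ± 0.52 in *Gpr124*-/- against wild type (edgeR, adjusted p = 0.0148), 0.62 ± 0.50 in *Gpr124*ΔC/ΔC against wild type (adjusted p = 0.701) and 1.39 ± 0.51 between the mutants (adjusted p = 0.116). Without JE3 the last value was 1.93 and passed (adjusted p = 0.0329), while the difference between *Gpr124*ΔC/ΔC and wild type dropped to 0.079. Without any 1 other library the latter ran from 0.39 to 0.91.

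*Igfbp2* (1:72824503-72852474, plus strand), whose gene lies 5.46 kb from *Igfbp5* on chromosome 1, went the other way and did not pass in the model of genotype alone. It was read at 522, 435, 93.0 and 161 TPM in wild-type JE1, JE6, KE8 and LE6, at 239, 211, 53.7 and 55.2 TPM in *Gpr124*ΔC/ΔC JE3, JE4, LE2 and LE5, and at 73.3, 102, 101 and 113 TPM in *Gpr124*-/- KE4, ME1, ME4 and ME5. The spread among wild-type libraries exceeded the difference between genotypes, and all ranges overlapped. The log2 fold change was -1.70 ± 0.62 in *Gpr124*-/- (edgeR, adjusted p = 0.0727) and -1.16 ± 0.61 in *Gpr124*ΔC/ΔC (adjusted p = 0.441). The *Gpr124*-/- difference passed without KE8 (-2.01, adjusted p = 0.0331) and in the fit of these 2 genotypes alone (-1.71, adjusted p = 0.037). In the model with the letter it was -0.39 (adjusted p = 0.516), and the *Gpr124*ΔC/ΔC difference was -1.34 and passed (adjusted p = 3.12e-05).

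*Igfbp4* (11:99041244-99054392, plus strand) was abundant and even, at 790.1 to 911 TPM in wild type, 704 to 985 TPM in *Gpr124*ΔC/ΔC and 1007 to 1191 TPM in *Gpr124*-/-. The *Gpr124*-/- range lay above both others. It rose by 0.39 ± 0.09 on the log2 scale from *Gpr124*ΔC/ΔC to *Gpr124*-/- (edgeR, adjusted p = 0.0212), whereas the difference of 0.28 ± 0.09 between *Gpr124*-/- and wild type just missed the threshold (adjusted p = 0.0527) and passed without JE4, LE2 or KE4 and by DESeq2. That between *Gpr124*ΔC/ΔC and wild type was -0.11 ± 0.09 (adjusted p = 0.722). The difference between the mutants no longer passed in 8 of 23 alternatives: with the label letter (0.29, adjusted p = 0.844), in the fit of these 2 genotypes alone (adjusted p = 0.0689), in 3 limma fits on log2 TPM (adjusted p up to 0.147), without LE2 or LE5 (adjusted p up to 0.0637), and without both JE6 and JE3 (adjusted p = 0.0585).

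*Igfbp7* (5:77349240-77408041, minus strand), which binds IGFs weakly and is abundant in endothelium, had the highest mean of the 10 members in each genotype. Its TPM were 3695, 2789, 549 and 708 in wild-type JE1, JE6, KE8 and LE6, 3604, 2566, 523 and 578 in *Gpr124*ΔC/ΔC JE3, JE4, LE2 and LE5, and 1814, 3448, 5135 and 5105 in *Gpr124*-/- KE4, ME1, ME4 and ME5. Wild type and *Gpr124*ΔC/ΔC each held a high and a low pair of libraries. The log2 fold change was 0.93 ± 0.74 in *Gpr124*-/- (edgeR, adjusted p = 0.447), -0.12 ± 0.74 in *Gpr124*ΔC/ΔC (adjusted p = 0.983) and 1.05 ± 0.74 between the mutants (adjusted p = 0.429).

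Counted over the members, 5 rose and 2 fell in *Gpr124*-/- against wild type at an adjusted p under 0.05, where 10.5% of all tested genes rose and 9.32% fell. Those called were *Igf1*, *Igf2*, *Igf1r*, *Igfbp3* and *Igfbp5*, 5 of 10 against 9.88% of all tested genes. In *Gpr124*ΔC/ΔC against wild type, 4 rose and 1 fell, against 1.85% and 2.24% of tested genes, and *Igf1*, *Igf2* and *Igfbp5* were called, against 1.92%. Between the mutants, *Igf2*, *Igf2r* and *Igfbp4* were higher in *Gpr124*-/- and *Insr* lower, against 4.93% and 3.89%. *Igf1*, *Igf1r* and *Igf2r* lay near the size limit while still passing by p: in *Gpr124*-/- against wild type, *Igf1* was 0.97 to 0.98 without LE6, KE4 or ME1, *Igf1r* was -0.94 without JE6, and *Igf2r* was 1.01 to 1.04 without JE1, JE6, KE4 or ME1. In *Gpr124*ΔC/ΔC, *Igf1r* was -1.24 to -1.04 without KE8, LE6 or JE3. No member was called between the mutants by edgeR or by DESeq2, against 4.6% of tested genes, and 5 members had an unadjusted p under 0.05. TPM ranges did not overlap for 7 members in *Gpr124*-/- against wild type (20.3% of tested genes), 5 in *Gpr124*ΔC/ΔC against wild type (8.85%) and 3 between the mutants (11.5%). The median log2 fold change of the members was 0.96, 0.22 and 0.19 in the 3 comparisons, against -0.01, 0.01 and -0.02 over all tested genes. Each pair of comparisons shares the libraries of 1 genotype. The members were chosen with earlier results known, so these shares describe them and were given no test.

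The spread of *Igfbp2*, *Igfbp3* and *Igfbp7* followed the first letter of the embryo label, whose meaning is not given in the labels. Letter J covers 2 wild-type and 2 *Gpr124*ΔC/ΔC libraries, L 1 and 2, K 1 wild-type and 1 *Gpr124*-/- library, and M 3 *Gpr124*-/- libraries. In wild type, letter J libraries were higher than the others by 2.07 for *Igfbp2*, 1.55 for *Igfbp3* and 2.48 for *Igfbp7* (log2 differences); in *Gpr124*ΔC/ΔC the corresponding values were 2.21, 1.49 and 2.64. A difference above 1 in the same direction in both genotypes was found in 4.35% of tested genes. The other 7 members differed by at most 0.54 in size between letter J and the rest. The longest annotated transcripts of *Igfbp2* and *Igfbp7* are 62.1% and 58.8% G and C, that of *Igfbp3* 52.5% and that of *Igfbp4*, which did not follow the letter, 55.1%, against a median of 49.4% over tested genes; whether base composition played a part was not tested.

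**Figure D3:**
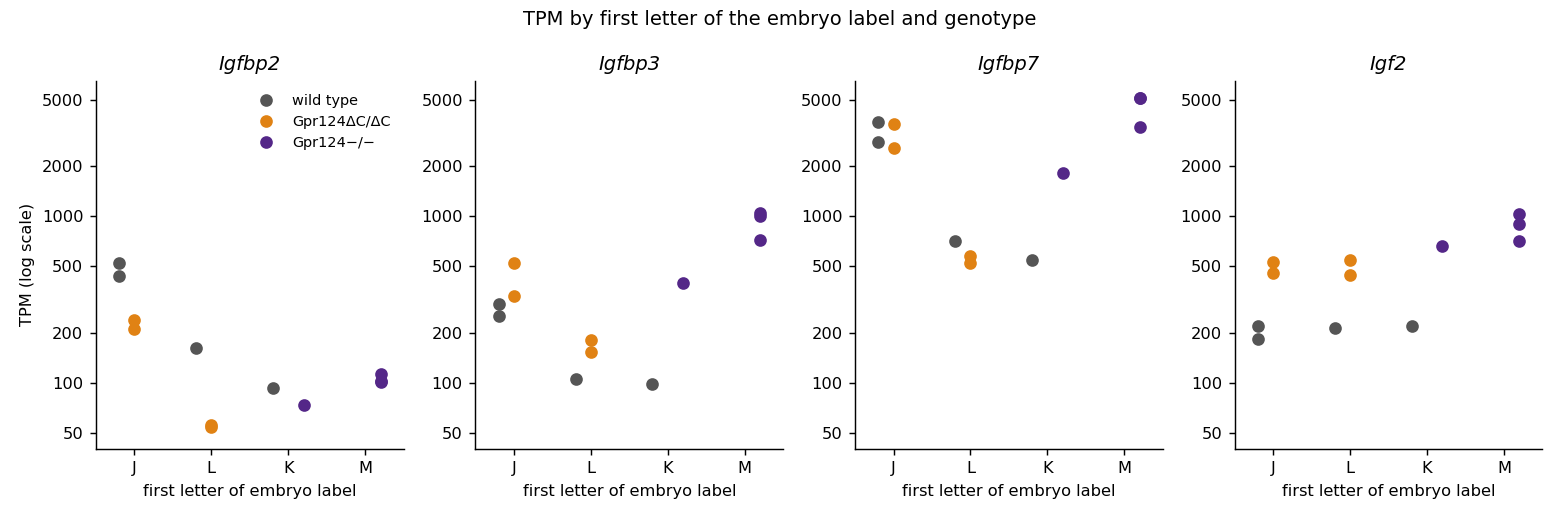
TPM (log axis) of *Igfbp2*, *Igfbp3*, *Igfbp7* and *Igf2* by first letter of the embryo label, with points colored by genotype, one point per library. *Igfbp2*, *Igfbp3* and *Igfbp7* are high in letter J and low in letter L within the same genotype, whereas *Igf2* separates by genotype within every letter that holds 2 genotypes.

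Within letters, the changes of the ligands, *Igf1r*, *Igf2r* and *Igfbp5* kept their direction. *Gpr124*ΔC/ΔC minus wild type on the log2 scale was 1.07 in J and 1.54 in L for *Igf1*, 1.25 and 1.11 for *Igf2*, -0.96 and -1.02 for *Igf1r*, 0.42 and 0.58 for *Igf2r*, and 1.75 and 1.44 for *Igfbp5*. KE4 minus KE8, the 1 pair of *Gpr124*-/- and wild type within a letter, gave 1.32 for *Igf1*, 1.55 for *Igf2*, -1.03 for *Igf1r*, 1.04 for *Igf2r* and 2.89 for *Igfbp5*. With the letter as a term in edgeR, which for *Gpr124*-/- compares this 1 pair, *Igf2*, *Igf2r*, *Igfbp3* and *Igfbp5* passed (adjusted p = 0.00184, 0.00275, 0.00283 and 0.00068), while *Igf1* and *Igf1r* did not.

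*Igfbp2*, *Igfbp3* and *Igfbp7* were also compared within letters. *Igfbp2* was lower in *Gpr124*ΔC/ΔC than in wild type, with log2 differences of -1.13 in J and -1.66 in L. In KE4 minus KE8 it was -0.39. *Igfbp3* was higher in *Gpr124*ΔC/ΔC by 0.55 in J and 0.57 in L, and 0.60 with the letter in the model did not pass (adjusted p = 0.0702); KE4 minus KE8 was 1.98. *Igfbp7* gave -0.13 in J and -0.47 in L, and 1.68 in KE4 minus KE8, where the fit with the letter passed (adjusted p = 0.00741). *Gpr124*-/- and *Gpr124*ΔC/ΔC share no letter, so for these 2 mutants letter and genotype cannot be told apart within any letter; with the letter term, reached through wild type, *Igf2*, *Igf2r*, *Insr* and *Igfbp4* no longer passed (adjusted p from 0.274 to 0.859), and *Igfbp7* was called, at 1.92 (adjusted p = 0.0267).

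The ratio of *Igfbp3* to *Igfbp2* TPM within each library separated the genotypes in every letter that holds more than 1 genotype. It was 0.57, 0.58, 1.05 and 0.65 in wild-type JE1, JE6, KE8 and LE6, 2.18, 1.57, 3.38 and 2.78 in *Gpr124*ΔC/ΔC JE3, JE4, LE2 and LE5, and 5.42, 7.01, 10.4 and 8.91 in *Gpr124*-/- KE4, ME1, ME4 and ME5. The 3 ranges did not overlap. Of the summed TPM of the 5 binding proteins, *Igfbp2* made up 5.80% to 10.2% in wild type, 3.30% to 5.16% in *Gpr124*ΔC/ΔC and 1.37% to 2.23% in *Gpr124*-/-, and *Igfbp3* made up 5.52% to 6.09%, 8.11% to 11.6% and 12.1% to 14.2%. The share of *Igfbp7* ran from 33.6% to 71.0% without following genotype. The ratio and shares were chosen after the values were seen and are given without a test.

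**Figure D4:**
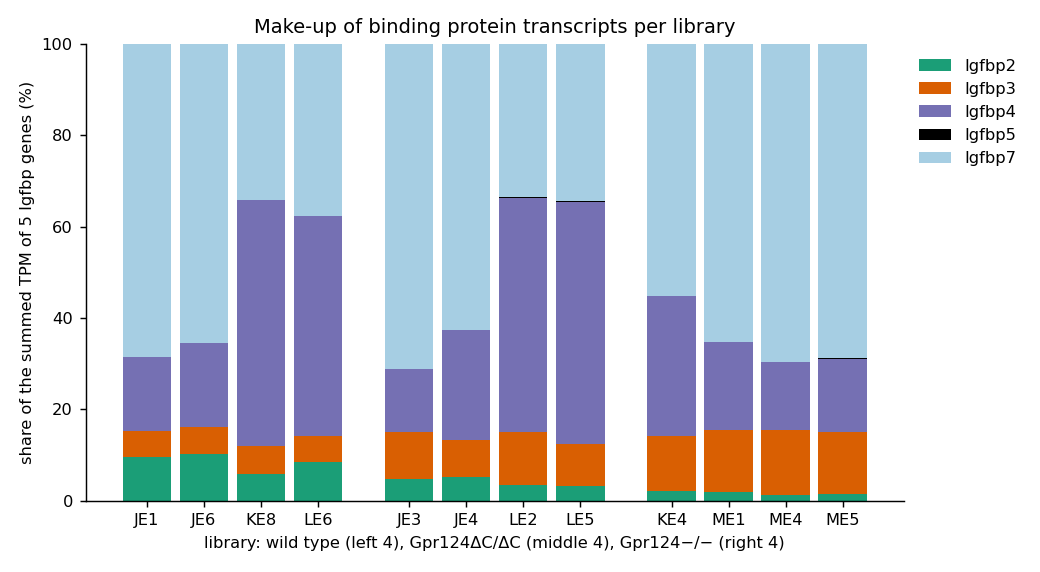
Share (%) of the summed TPM of the 5 binding protein genes taken by each gene, one stacked bar per library, wild type left, *Gpr124*ΔC/ΔC in the middle and *Gpr124*-/- right. The *Igfbp2* share shrinks from 5.80% to 10.2% in wild type to 1.37% to 2.23% in *Gpr124*-/- while that of *Igfbp3* grows, and *Igfbp7* and *Igfbp4* trade places between library pairs; *Igfbp5* is too scarce to see.

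Among 58 other genes of the pathway, 50 were tested. In *Gpr124*-/- against wild type 11 rose and 3 fell, where 10.5% of all tested genes rose and 9.32% fell, in *Gpr124*ΔC/ΔC against wild type 5 rose and 0 fell, where 1.85% and 2.24% did (edgeR; DESeq2 gave 6 and 0, and 11 of the 50 had an unadjusted p under 0.05), and between the mutants 8 were higher and 2 lower in *Gpr124*-/-, against 4.93% and 3.89%. With the label letter in the model these counts were 7 and 1, 8 and 2, and 4 and 0, and every value from that model given below for a pathway gene in *Gpr124*-/- rests on KE4 against KE8. Of 7 further ligands, receptors and binding proteins, 3 were tested and none passed in any comparison by edgeR, with 1 unadjusted p under 0.05; with the label letter, *Igfbpl1*, an IGF binding protein-like gene, passed in *Gpr124*-/- at 2.19 (adjusted p = 0.0249), against 1.22 without the letter (adjusted p = 0.228). In *Gpr124*ΔC/ΔC against wild type, leaving out 1 library gave 3 to 6 that rose and 0 that fell. The count was 3 without JE1, LE6, JE4 or LE2. The 5 that rose in *Gpr124*ΔC/ΔC with all libraries were *Stc1*, *Igf2bp2*, *Grb10*, *H19* and *Mest*, and their values in both mutants follow.

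*Stc1*, which encodes stanniocalcin 1, an inhibitor of the PAPP-A proteases that cleave IGFBPs, gave 4.82 to 7.60 TPM in wild type, 9.21 to 14.2 TPM in *Gpr124*ΔC/ΔC and 33.8 to 39.7 TPM in *Gpr124*-/-. In the mutants its log2 fold change was 0.91 ± 0.14 (edgeR, adjusted p = 0.00224) and 2.54 ± 0.14 (adjusted p = 2.5e-07). The proteases themselves, *Pappa* and *Pappa2*, did not exceed 0.09 TPM in any library. *Htra1*, another protease that cleaves IGFBPs, gave 15.4 to 120.4 TPM over all libraries; in *Gpr124*ΔC/ΔC it was -0.83 (adjusted p = 0.648), and -1.05 with the label letter, which passed (adjusted p = 0.00815). *Igf2bp2*, which encodes an RNA-binding protein named for its binding to *Igf2* mRNA, rose by 0.62 ± 0.16 and 1.36 ± 0.16 (adjusted p = 0.0441 and 4.91e-05), whereas the other two family members did not pass. With the label letter in the model, *Igf2bp2* in *Gpr124*-/- was 0.80 and did not pass (adjusted p = 0.106), while *Stc1* did, at 2.29 (adjusted p = 0.000148).

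Receptor adaptors divided. *Grb10*, an imprinted inhibitor of IGF1R and insulin receptor signaling, gave 104 to 129.6 TPM in wild type, 137 to 193 TPM in *Gpr124*ΔC/ΔC and 209 to 260.2 TPM in *Gpr124*-/-, log2 fold changes of 0.42 ± 0.09 and 0.97 ± 0.09 (edgeR, adjusted p = 0.022 and 1.12e-05). *Grb14*, a related inhibitor, fell by 2.28 ± 0.37 in *Gpr124*-/- (adjusted p = 0.000683) and differed by 0.13 ± 0.34 in *Gpr124*ΔC/ΔC (adjusted p = 0.953). *Irs2*, a docking protein downstream of both receptors, rose by 2.14 ± 0.46 in *Gpr124*-/- (adjusted p = 0.00501), from 1.05 to 2.35 TPM in wild type to 2.27, 10.6, 6.03 and 11.7 TPM in KE4, ME1, ME4 and ME5, so KE4 lay within the wild-type range. *Gab1*, another docking protein, passed between the mutants alone, lower in *Gpr124*-/- by 0.53 ± 0.13 (log2 fold change -0.53, adjusted p = 0.0258). With the label letter in the model, *Grb10* passed in *Gpr124*-/- at 0.82 (adjusted p = 0.0254). *Grb14* at -0.85 (adjusted p = 0.132) and *Irs2* at 1.07 (adjusted p = 0.259) against wild type, and *Gab1* at -0.23 between the mutants (adjusted p = 0.922), were among those that no longer passed. *Grb2* passed with the letter alone, at 1.25 against wild type (adjusted p = 0.0105) and 1.62 between the mutants (adjusted p = 0.0219), where the values without it were 0.41 and 0.70 (adjusted p = 0.712 and 0.533). Its 40.8 to 88.2 TPM in *Gpr124*-/- lay within the wild-type 16.6 to 89.1 TPM. *Sos1* in *Gpr124*ΔC/ΔC likewise passed at 0.49 (adjusted p = 0.035), against 0.39 without the letter (adjusted p = 0.366).

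Of 20 genes of PI3K, AKT and mTOR signaling, 2 rose and 2 fell in *Gpr124*-/- against wild type, near the shares over all tested genes (10.5% and 9.32%), and none passed in *Gpr124*ΔC/ΔC by edgeR, with 2 at an unadjusted p under 0.05. The 2 that fell were *Foxo4*, with a log2 fold change of -0.99 ± 0.27 (edgeR, adjusted p = 0.0185), and *Rictor*, with -0.52 ± 0.14 (adjusted p = 0.0165). With the label letter in the model these were -1.05 and -0.49, and neither passed. *Pik3r1*, a regulatory subunit of PI3K, rose by 0.71 ± 0.10 (adjusted p = 0.000338) and *Eif4ebp1*, a translational repressor that mTOR inactivates, by 0.90 ± 0.11 (adjusted p = 5.86e-05). With the label letter in the model they were 0.43 (adjusted p = 0.28) and 0.58 (adjusted p = 0.123), and neither passed. Of 10 imprinted growth genes, 9 were tested, and 4 rose in *Gpr124*-/- and 2 in *Gpr124*ΔC/ΔC, where 10.5% and 1.85% of all tested genes rose. *H19*, the non-coding gene 72.6 kb from *Igf2* that shares its imprinting control region but is expressed from the maternal allele, gave 247 to 298 TPM in wild type, 447 to 709 TPM in *Gpr124*ΔC/ΔC and 721 to 1009 TPM in *Gpr124*-/-. Its log2 fold change was 0.99 ± 0.19 (edgeR, adjusted p = 0.00976) and 1.62 ± 0.20 (adjusted p = 7.09e-05). *Mest* rose by 0.55 ± 0.10 and 1.31 ± 0.10 (adjusted p = 0.00481 and 1.46e-06). With the label letter in the model, *H19* passed in *Gpr124*-/- at 1.51 (adjusted p = 0.00606) and *Mest* at 1.08 (adjusted p = 0.000945), while *Meg3* and *Peg3*, the others that rose, did not (adjusted p = 0.0906 and 0.128). *Gnas* and *Dcn* passed in *Gpr124*-/- in that model alone, at 1.97 (adjusted p = 0.00182) and -2.81 (adjusted p = 0.00578), against 1.33 and -1.26 without the letter (adjusted p = 0.18 and 0.165). *Gnas* was 122 TPM in KE4, within the wild-type 30.2 to 136.8 TPM, of which KE8 gave the lowest. *Dcn* was 37.9 TPM in KE8 and 5.35 to 5.91 TPM in the other wild-type libraries, and at most 6.45 TPM in *Gpr124*-/-; the fibroblast markers *Lum* and *Slc6a13* were also highest in KE8, at 11.5 and 9.02 TPM. In *Gpr124*ΔC/ΔC, *Cdkn1c* (-1.12), *Plagl1* (0.58) and *Peg3* (0.49) passed with the letter (adjusted p = 0.000494, 0.0308 and 0.02) and not without it (adjusted p = 0.478, 0.0654 and 0.359).

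**Figure D5:**
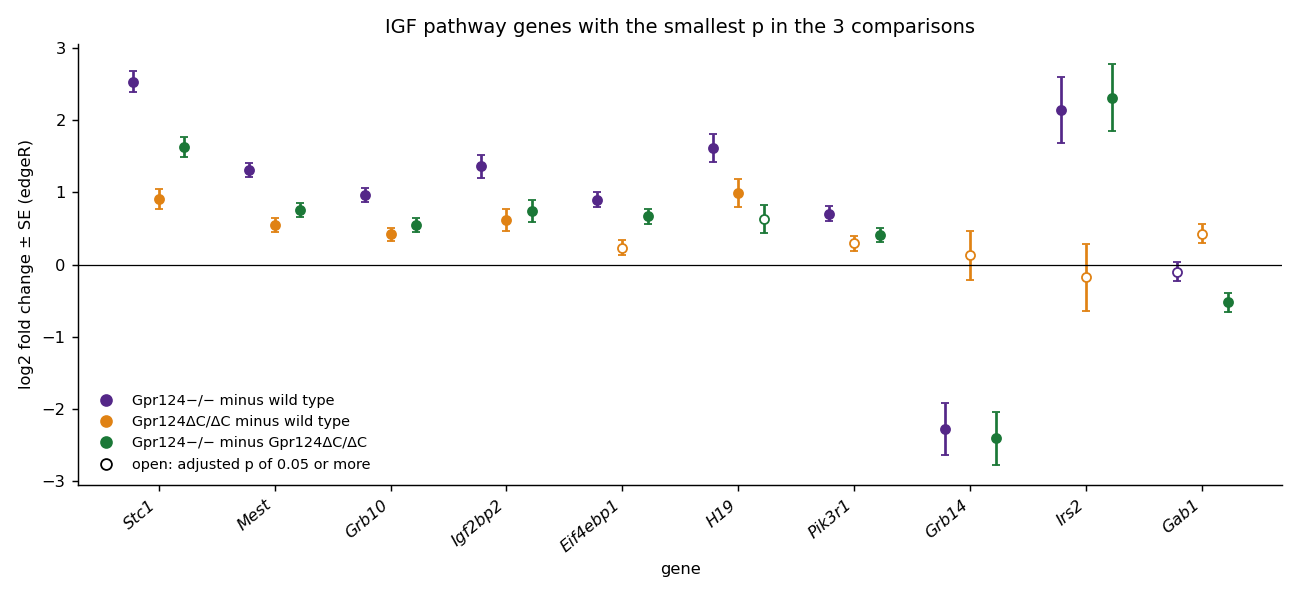
Log2 fold change ± SE (edgeR) in the 3 comparisons for the 10 pathway genes that are no members and had the smallest p among those that passed, at most 8 per comparison; filled points passed at an adjusted p under 0.05. *Stc1*, *Mest*, *Grb10* and *Igf2bp2* are filled in all 3 comparisons and *H19* in both against wild type, *Grb14* falls and *Irs2* rises in *Gpr124*-/-, and *Gab1* passes between the mutants alone.

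The genes most alike to each called member were found by the root mean square difference of centered log2 CPM over the 12 libraries. For *Igf1* they were *Angptl1* (0.18), *Zfp462* (0.26) and *Eya1* (0.27), and for *Igf2* *Ifitm2* (0.15), *Gpx3* (0.19) and *Flot2* (0.20). For *Igf1r* they were *Larp1b* (0.21), *Nxn* (0.21) and *Pcdh19* (0.21), and for *Igfbp3* *Cables1* (0.22), *Fam81a* (0.22) and *Fkbp5* (0.24). *Igfbp5* was least closely matched, by *Traf3ip2* (0.31), *Pcdh17* (0.31) and *Gm11951* (0.32). *Ifitm2* had a mean of 258 TPM in wild type, 609.8 TPM in *Gpr124*ΔC/ΔC and 1033 TPM in *Gpr124*-/-, the same order as *Igf2*.

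Cell types other than endothelium also transcribe these genes, and in sorted bulk RNA fewer cells of a type cannot be told apart from less RNA per cell. Of 10 fibroblast and meningeal markers, 0 rose and 1, *Pdgfra*, fell in *Gpr124*-/- against wild type (edgeR, 6 tested, 1 with an unadjusted p under 0.05); their summed level was 25.5 to 82.0 TPM in wild type, 30.4 to 57.9 TPM in *Gpr124*ΔC/ΔC and 27.8 to 29.5 TPM in *Gpr124*-/-, and it was highest in wild-type KE8. Pericyte markers summed to 38.5 to 88.6, 19.6 to 40.2 and 38.4 to 47.2 TPM. Of the 10, *Abcc9* rose by 2.66 (adjusted p = 0.000327) and *Rgs5* fell by 1.47 (adjusted p = 0.0186) in *Gpr124*-/-, and *Higd1b* fell by 1.54 (adjusted p = 0.043) in *Gpr124*ΔC/ΔC, where 5 had an unadjusted p under 0.05 and the median log2 fold change was -0.90. Smooth muscle markers summed to 2.0 to 3.0, 1.6 to 10.8 and 3.5 to 11.5 TPM. Neuron markers summed to 52.6 to 133, 84.3 to 145 and 108 to 141 TPM and neural progenitor markers to 37.0 to 54.4, 24.7 to 47.2 and 37.1 to 49.7 TPM. Of these, *Stmn2*, a neuron marker, rose by 1.25 in *Gpr124*-/- (adjusted p = 0.00109), and *Slc1a3*, on the progenitor list, fell by 2.15 in *Gpr124*-/- and by 1.95 in *Gpr124*ΔC/ΔC (adjusted p = 4.49e-05 and 0.000536), below wild type without overlap in both. The part of any of these cells in the members' values was not tested.

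Macrophage and microglia markers, of interest because microglia make IGF1, summed to 93.9 to 131 TPM in wild type, 97.4 to 140 TPM in *Gpr124*ΔC/ΔC and 122 to 151 TPM in *Gpr124*-/-. Of the defining markers, *Cx3cr1* did not exceed 0.36 TPM, and *C1qa* was at 5.16 TPM in KE4 and at most 1.09 TPM elsewhere. *P2ry12* was the 1 of 4 tested that rose in *Gpr124*-/- against wild type, to 26.4 to 40.1 TPM in the letter M libraries. *Mrc1* had a log2 fold change of -1.42 there and did not pass (edgeR, adjusted p = 0.0612). Between the mutants, *P2ry12* was higher in *Gpr124*-/- (1.88, adjusted p = 0.0127) and *Mrc1* lower (-1.75, adjusted p = 0.0446). Choroid plexus markers, a tissue rich in IGF2, summed to 123 to 831 TPM in wild type, 150.1 to 1604 TPM in *Gpr124*ΔC/ΔC and 33.6 to 282 TPM in *Gpr124*-/-, and were highest in JE3, JE4 and JE6. Most of this sum was *Ttr*, with means of 413, 739 and 153 TPM in the same order. None of the 6 tested passed against wild type (edgeR). Between the mutants 1 passed, lower in *Gpr124*-/-, and 5 had an unadjusted p under 0.05, with a median log2 fold change of -2.11. The part of macrophages, microglia and choroid plexus in the members' values was not tested.

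Blood cell transcripts moved with the null. Erythroid markers summed to 6652 to 11198 TPM in wild type, 5338 to 9644 TPM in *Gpr124*ΔC/ΔC and 17611 to 52519 TPM in *Gpr124*-/-, and 5 of 6 rose (edgeR). Platelet markers summed to 231 to 455, 315 to 438 and 497 to 1435 TPM, and 4 of 5 rose. Neither list had a member that passed in *Gpr124*ΔC/ΔC against wild type by edgeR, and 0 of their 11 genes had an unadjusted p under 0.05 there. The part of blood cells in the members' values was not tested. Of 10 endothelial markers, 3 rose and 3 fell in *Gpr124*-/-, and *Cldn5*, a tight junction gene, was the gene among them with the most TPM in wild type. *Cldn5* was 7613 to 10108 TPM in wild type, 3531 to 6451 TPM in *Gpr124*ΔC/ΔC and 1877 to 2721 TPM in *Gpr124*-/-, whereas the other 9 markers summed to 4471 to 5666, 3889 to 6202 and 4734 to 5673 TPM.

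Some members share ground with other annotated genes. *Igfbp7* and *Polr2b*, on opposite strands, share 85 of the 1209 exon bases of *Igfbp7*; *Polr2b* ran at 56.2 to 94.2 TPM without passing in any comparison (edgeR, adjusted p from 0.44 to 0.953). *Igf2* and the antisense *Igf2os* share 98 of 5723 exon bases, and *Igf2os* did not exceed 1.17 TPM. Against wild type, *Igf2os* rose by 1.69 in *Gpr124*-/- (edgeR, adjusted p = 0.0156) and by 1.23 in *Gpr124*ΔC/ΔC without passing (adjusted p = 0.19). *Igf1r* and *Igfbp2* to *Igfbp5* overlap no other annotated gene.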

How the data were processed

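Endothelial cells were sorted from E15.5 forebrains, and RNA was isolated with the PicoPure kit. Per the labels, libraries were prepared with the SMART-Seq v4 ultra-low input kit; the study's methods give poly(A) selection and paired-end sequencing. The authors deposited counts per gene (whole reads, not normalized; gene coordinates in mm10) and TPM values computed from them with gene length; recomputed TPM differed by at most 0.00498%. bcl2fastq 2.17 is named in the submitters' processing notes; aligner, counter and strand setting are not given in the sources used here. Reads counted per library ran from 13877572 to 22551163; intervals from 4 embryos per genotype set the precision.

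Counts were tested in R 4.3.3 with edgeR 4.0.16: filterByExpr (count minimum 10) left 16637 genes, TMM factors were 0.946 to 1.04, and glmQLFit and glmQLFTest were fitted to all 12 libraries with genotype as the term; p-values were Benjamini-Hochberg adjusted over all genes tested. Alternatives used DESeq2 1.42.0 and limma 3.58.1 on log2(TPM + 1) or log2(TPM + 0.1), with a mean TPM of at least 1. Symbols came from GENCODE vM21 (49056 of 49315 identifiers matched) and promoter windows from RefSeq. The members and lists were chosen with earlier results of these data known. Named genes were the 10 members, *Gpr124*, at most 8 passing pathway genes per comparison by smallest p, and the 3 genes most alike to each called member. *Airn*, *Pappa*, *Pappa2*, *Polr2b*, *Igf2os*, *Cldn5*, *Igfbpl1*, *Grb2*, *Sos1*, *Foxo4*, *Rictor*, *Meg3*, *Peg3*, *Gnas*, *Dcn*, *Cdkn1c*, *Plagl1*, *Htra1* and single markers were named after their values were seen. *Gm23935* took 12.5% and 14.1% of TPM in JE6 and JE3, which lowers all other TPM there.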

Additional observations from a re-analysis of the deposited data

Results flagged for a closer look

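In groups of 4 libraries, 60 were examined for 1 library far from the other 3 (its gap to the nearest, as a share of the range, being past Dixon's limit), and 7 were found; chance flags about 1 in 20. In wild type, *Igf1* was 3.10 TPM in LE6 against 4.28 to 4.47 TPM in the others, *Igf2* was 183 TPM in JE6 against 213 to 219 TPM, and *Igf1r* was 38.2 TPM in JE6 against 25.8 to 27.4 TPM. In *Gpr124*ΔC/ΔC, *Igf2r* was 54.8 TPM in JE3 against 67.1 to 68.9 TPM, and *Pik3r1* was 16.1 TPM in JE3 against 19.5 to 20.1 TPM. In *Gpr124*-/-, KE4 stood apart for *Insr*, at 53.7 TPM against 35.3 to 37.0 TPM, and for *Mest*, at 3116 TPM against 3809 to 3935 TPM. JE6 and JE3 are the libraries in which *Gm23935* took 12.5% and 14.1% of TPM, and KE4 is the 1 *Gpr124*-/- library of letter K.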

How the results depend on the processing

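Of 30 fold changes, 10 members in 3 comparisons, 11 kept their direction and their side of the threshold in all 23 alternatives; of 690 values, 36 no longer passed, 13 newly passed and 16 changed sign, all of them for differences that did not pass. The count of members called in *Gpr124*-/- against wild type was 5, with 4 to 6 under the other alternatives and 7 by adjusted p alone. That in *Gpr124*ΔC/ΔC against wild type was 3, with 3 or 4 under all other alternatives and 5 by adjusted p alone. Between the mutants the count was 0; it was 4 by adjusted p alone, 1 with the label letter as a term (*Igfbp7*), 1 without KE8 and KE4, 1 without JE6 and JE3 (*Igfbp3* in both), and 0 to 1 when single libraries were left out, the 1 being *Igfbp3* without JE3. Signs changed for *Igfbp7* in *Gpr124*ΔC/ΔC against wild type (log2 fold change 0.36 without JE1, 0.16 without JE6, 0.20 without LE2, 0.19 without LE5; lowest -0.82) and, between the mutants, for *Igf1* (0.061 with the letter term, 0.078 without ME5; lowest -0.20), *Igf1r* (0.094 without JE3, 0.098 without JE6 and JE3), *Igfbp2* (0.95 with the letter term) and *Igfbp5* (1.37 with the letter term, 0.0012 without the filter on low counts, 0.073 without JE3, 0.018 without JE4, 0.023 without ME1, 0.056 without ME5, 0.077 without JE6 and JE3); the cause was not tested. The fits without JE6 and JE3, without KE8 and KE4, and on TPM without *Gm23935* were chosen after seeing the data. The label letter, shared by libraries of different genotypes, is the blocked fit given here, and for *Gpr124*-/- it compares KE4 with KE8. Replicate numbers were given in accession order and pair no samples, and embryo numbers that recur between genotypes stand under different letters.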
